A study of Mus musculus with 44 samples.

Results

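The 10 genes described here encode the machinery with which dendritic cells (DCs) show peptides on MHC class II: *H2-Aa*, *H2-Ab1*, *H2-Eb1*, *Cd74*, *H2-DMa*, *H2-DMb1*, *H2-DMb2*, *H2-Oa*, *H2-Ob* and *Ciita*. They were taken by symbol from the table of expression values, and all 10 of 10 symbols were found among its 14699 genes. The values are CPM, that is, reads on a gene scaled so that all listed genes of a library add up to 1000000. All 10 passed the filter for testing (at least 1 CPM in at least 5 libraries), together with 11963 genes in all. None of the 10 was at 0 in any library.

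Draining inguinal lymph nodes were taken 24 h after B16-F10-OVA melanoma cells or PBS were injected under the skin, and the RNA of their sorted CD45+CD11c+ cells with high surface MHCII was sequenced. Injections were at ZT3, ZT9, ZT15 or ZT21 (zeitgeber time, in hours after lights on). B16-F10-OVA is a mouse melanoma line that carries ovalbumin. The mice were females of 8–12 weeks kept under 12 h of light and 12 h of darkness. The 44 libraries comprise control mice with tumour cells (5 per timepoint, 20 libraries, here control tumour), *Clec9a-cre:Bmal1* flox/flox mice with tumour cells (3 per timepoint, 12 libraries, here labelled KO) and control mice with PBS (3 per timepoint, 12 libraries, here sham). In the labelled KO mice the Cre recombinase is expressed from *Clec9a*, in conventional DCs and their precursors, so other cells that pass the gate keep *Bmal1* (*Arntl*). Each library stands for 1 mouse, so that p-values measure the spread between mice, and the labels do not say which of the 2 independent experiments a mouse belonged to.

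Before the class II genes were compared, the label of the knockout was checked on *Arntl*. *Arntl* ranged from 11.5 to 38.0 CPM in the labelled KO libraries (median 18.0) and from 8.67 to 24.4 CPM in the control tumour libraries (median 14.8). It was higher, not lower, in the labelled KO libraries, by 0.38 on the log2 scale (limma, adjusted p = 0.0153). Reads inside and outside the floxed part cannot be told apart in a gene count, and these libraries are therefore named by their label only. The depth differed between the groups: 20088012 to 28962671 reads on genes in control tumour, 29406729 to 55799163 in labelled KO and 28003328 to 49590055 in sham libraries, so that depth and group cannot be told apart. Markers of mature migratory DCs were high in all libraries (summed level of 8 genes, including *Ccr7* and *Fscn1*, 22581 to 41918 CPM), as were those of conventional DCs (6 genes, including *Flt3* and *Zbtb46*, 5054 to 9977 CPM).

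MHC class II molecules are pairs of an α-chain and a β-chain. They are assembled in the endoplasmic reticulum around the invariant chain (*Cd74*), which fills the groove and directs them to endosomes. There, proteases such as cathepsin S trim the invariant chain to a short peptide, CLIP, and H2-M (*H2-DMa* with *H2-DMb1* or *H2-DMb2*) exchanges CLIP for antigenic peptides, while H2-O (*H2-Oa* with *H2-Ob*) restrains H2-M. CIITA, the class II transactivator, is recruited to the X and Y boxes of these promoters by RFX, CREB and NF-Y. DCs that mature and migrate to lymph nodes are known to carry much class II on the surface while lowering its synthesis. The cells were gated on surface class II, so that high levels of its genes are no finding here.

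Of the 10 genes, 8 lie in the class II region of chromosome 17 (GRCm38, the build of mm10). In the order of their position these are *H2-Oa* (chr17:34092379-34095234), *H2-DMa* (chr17:34119693-34139101), *H2-DMb2* (chr17:34143229-34151553), *H2-DMb1* (chr17:34153191-34160229), *H2-Ob* (chr17:34238905-34245908), *H2-Ab1* (chr17:34263227-34269418), *H2-Aa* (chr17:34282744-34287823) and *H2-Eb1* (chr17:34305867-34316674). *Ciita* lies on chromosome 16 (chr16:10480014-10531064). The libraries do not keep the strand. The gene model of *H2-DMa* overlaps that of *Brd2* and that of *Ciita* overlaps *Dexi*, both on the opposite strand, and *H2-Oa* and *H2-Eb1* overlap antisense genes, so that reads in these overlaps cannot be told apart.

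RefSeq promoters (GRCm38.p6, 250 bases before to 50 bases after the start of transcription) were at hand for 7 of the 10 genes. They were searched on both strands for GCAAC, the core of the X box, followed 15 to 40 bases later by ATTGG, the core of the Y box. These letters were chosen with the sequences of *H2-Aa* and *H2-Eb1* in view. The pair was found in 4 of the 7 genes, with its first base at -81 in *H2-Aa*, -91 in *H2-Eb1*, -76 in *H2-Oa* and -87 in *H2-Ob* and with 25 to 28 bases between its parts, and in 1.24% of 32544 promoters. The pair is in capitals, on the strand of the gene, in the promoters of the 2 classical genes and of the 2 H2-O genes, which are shown because they share it while their RNA levels and variation differ. The promoter of *H2-DMb1*, the member with the largest difference between control tumour and sham libraries averaged over time, is shown beside them. It lacks the exact pair and holds ATTGG (in capitals), a motif present on either strand in 37.4% of promoters. The search took exact letters only: GTAAC, close to GCAAC, precedes this ATTGG at a distance within the range searched. A promoter without a match may thus still hold an X box with other letters.
H2-Aa: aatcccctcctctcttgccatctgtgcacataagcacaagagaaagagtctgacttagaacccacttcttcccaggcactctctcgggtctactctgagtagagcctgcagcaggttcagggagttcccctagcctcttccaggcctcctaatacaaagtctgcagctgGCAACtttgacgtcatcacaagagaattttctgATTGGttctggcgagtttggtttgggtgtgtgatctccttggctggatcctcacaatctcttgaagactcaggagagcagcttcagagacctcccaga
H2-Eb1: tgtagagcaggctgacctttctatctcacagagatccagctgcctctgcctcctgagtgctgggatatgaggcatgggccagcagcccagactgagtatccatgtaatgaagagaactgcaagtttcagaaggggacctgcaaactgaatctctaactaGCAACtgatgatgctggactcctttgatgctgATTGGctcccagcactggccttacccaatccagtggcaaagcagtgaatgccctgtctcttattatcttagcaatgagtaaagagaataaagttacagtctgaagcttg
H2-Oa: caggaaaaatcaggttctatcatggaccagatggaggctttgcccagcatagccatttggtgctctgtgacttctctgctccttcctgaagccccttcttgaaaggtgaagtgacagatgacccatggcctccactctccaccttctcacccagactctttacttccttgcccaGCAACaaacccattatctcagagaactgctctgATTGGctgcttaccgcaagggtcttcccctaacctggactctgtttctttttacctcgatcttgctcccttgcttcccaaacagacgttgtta
H2-Ob: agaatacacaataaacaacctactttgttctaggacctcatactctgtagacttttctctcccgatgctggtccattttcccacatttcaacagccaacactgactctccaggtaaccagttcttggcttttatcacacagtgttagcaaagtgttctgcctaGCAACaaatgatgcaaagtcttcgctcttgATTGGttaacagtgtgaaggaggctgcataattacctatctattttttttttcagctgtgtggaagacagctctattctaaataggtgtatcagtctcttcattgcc
H2-DMb1: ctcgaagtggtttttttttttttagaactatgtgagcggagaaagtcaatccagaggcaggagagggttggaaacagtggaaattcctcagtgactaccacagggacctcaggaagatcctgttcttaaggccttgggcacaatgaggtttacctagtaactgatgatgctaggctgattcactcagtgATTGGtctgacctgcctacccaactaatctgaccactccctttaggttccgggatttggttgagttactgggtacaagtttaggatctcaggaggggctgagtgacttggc
These windows are chr17:34287774-34288073 on the minus strand for *H2-Aa*, and, on the plus strand, chr17:34305617-34305916 for *H2-Eb1*, chr17:34092129-34092428 for *H2-Oa*, chr17:34238655-34238954 for *H2-Ob* and chr17:34152941-34153240 for *H2-DMb1*. *H2-DMb2* held ATTGG without the exact pair, with TTAAC before it at a distance within the range searched. For *H2-DMa*, 1 of the 2 starts held ATTGG without the pair. The count of genes with the pair thus rests on the exact letters. The windows of *H2-DMa* and *H2-DMb2* lie inside the gene coordinates given above, so that they may not hold the main promoter. The E-box CACGTG, which the BMAL1–CLOCK dimer can bind, was in none of these promoters and in 7.17% of all promoters. A match is a description of letters, not of binding.

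Together the 10 genes took 1.36–2.78% of all reads on genes in control tumour libraries, 1.51–2.76% in labelled KO and 1.85–2.66% in sham libraries. *Cd74* alone made up 61.1% ± 2.23 (SD, n = 44) of this sum. To compare genes with each other, levels were divided by the exon length of the GENCODE gene model (CPM per kb), a scale on which long or rarely used exons lower a level. In control tumour libraries *Cd74* reached 6631 ± 1477 CPM per kb (SD, n = 20), followed by the classical chains *H2-Eb1* (1076 ± 263), *H2-Ab1* (908 ± 229) and *H2-Aa* (668 ± 123). A step below were *H2-DMb1* (47.7 ± 8.49), *H2-DMb2* (26.5 ± 5.10), *H2-DMa* (23.7 ± 6.26) and *H2-Oa* (21.9 ± 4.57). The transactivator *Ciita* (4.03 ± 1.06) and *H2-Ob* (2.08 ± 0.510) were lowest.

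Most neighbours in this order kept it within each library, but some did not. *H2-DMa* was above *H2-Oa* in 11 of 20 control tumour libraries, and *H2-DMb2* above *H2-DMa* in 17 of 20. *H2-Eb1* was above *H2-Ab1* in all 20 control tumour libraries but below it in 9 of 12 sham libraries and in 8 of 12 labelled KO libraries. *Cd74* was above every other member in all 44 libraries.

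To see how tumour engraftment bore on these genes, control tumour and sham libraries were compared, averaged over the 4 timepoints. All 10 genes had lower estimates of this average with tumour cells (55.3% of all genes tested), and 7 of the 10 passed the test as lower (limma, adjusted p under 0.05), beside 24.6% of all genes tested called lower, 13.3% called higher and 37.9% called in all. The median log2 difference of the 10 was -0.38, compared with -0.04 over all genes tested. The peptide exchange genes *H2-DMb1* and *H2-DMa* fell most, to 0.548-fold and 0.571-fold, while the α-chain *H2-Aa* (0.925-fold) did not pass. RNA from sorted cells does not tell fewer cells of a type from less RNA per cell.

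*H2-DMb1*, a β-chain of H2-M, was between 58.5 and 121 CPM in control tumour libraries (median 78.2) and between 101 and 197 CPM in sham libraries (median 141). At each of the 4 timepoints every control tumour library was below every sham library. At ZT9, for instance, the 5 control tumour libraries held 80.7, 73.8, 62.4, 75.9 and 58.5 CPM and the 3 sham libraries 137, 197 and 120 CPM. The log2 difference was -0.87 ± 0.084 (SE; adjusted p = 4.07e-09). At a single timepoint, groups that did not overlap in this direction were found for 13.4% (ZT3), 13.3% (ZT9), 14.7% (ZT15) and 10% (ZT21) of all genes tested.

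*H2-DMa*, the α-chain of H2-M, was between 57.3 and 136 CPM with tumour cells (median 76.1) and between 111 and 220 CPM in sham libraries (median 135). Its groups did not overlap at ZT9 and ZT21. The log2 difference was -0.81 ± 0.098 (SE; adjusted p = 2.22e-07). *H2-DMb2*, the other β-chain, changed less: 35.0 to 65 CPM (median 42.5) against 36.7 to 77.8 CPM (median 54.4), with a log2 difference of -0.30 ± 0.098 (SE; adjusted p = 0.0175) with overlap at every timepoint.

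*H2-DMb1* and *H2-DMb2* are near copies of each other, and both held fractions of a read in 44 of 44 libraries, so that the split between them is uncertain. Their summed level was also lower with tumour cells, by 0.69 on the log2 scale (adjusted p = 7.71e-08). *H2-DMb2* made up 36.6% ± 3.71 (SD, n = 20) of the sum in control tumour libraries and 28.0% ± 3.97 (SD, n = 12) in sham libraries.

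Both H2-O genes, which restrain H2-M, were lower with tumour cells as well. *H2-Oa* ranged from 21.7 to 44.7 CPM (median 30.0) in control tumour and from 35.3 to 63.4 CPM (median 44.4) in sham libraries, a log2 difference of -0.60 ± 0.10 (SE; adjusted p = 2.80e-05). Its groups did not overlap at ZT3 and ZT9. *H2-Ob*, the lowest of the set, ranged from 5.66 to 16.4 CPM (median 11.6) against 7.12 to 24.9 CPM (median 15.6), a log2 difference of -0.46 ± 0.15 (SE; adjusted p = 0.0136), and its groups did not overlap at ZT3.

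Of the classical chains, only the β-chain *H2-Ab1* passed the test. It ranged from 1461 to 3881 CPM (median 2135) with tumour cells and from 2385 to 4178 CPM (median 3242) in sham libraries. The log2 difference was -0.49 ± 0.091 (SE; adjusted p = 9.48e-05), with no overlap at ZT9 and ZT21. Its partner *H2-Aa* lay between 1950 and 3763 CPM (median 2450) against 2332 and 3218 CPM (median 2713), with a log2 difference of -0.11 (95% interval -0.26 to 0.03, adjusted p = 0.224). *H2-Eb1* gave -0.16 (95% interval -0.35 to 0.02, adjusted p = 0.164).

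The ratios of the classical chains within a library therefore differed between the groups, whatever the scaling. *H2-Eb1* per *H2-Ab1* was 0.901 ± 0.0608 (SD, n = 20) in control tumour libraries, with a range of 0.814 to 1.05, and 0.715 ± 0.0445 (SD, n = 12) in sham libraries, with a range of 0.670 to 0.782. The groups did not overlap. *H2-Aa* per *H2-Ab1* was 1.11 ± 0.104 against 0.849 ± 0.0750, and here the lowest control tumour library (0.970) was below the highest sham library (0.978). In labelled KO libraries these ratios were 0.766 ± 0.0974 and 0.893 ± 0.154 (SD, n = 12). The ratios were examined after the values were seen and are given without a test, and *H2-Eb1* and *H2-Ab1* held fractions of a read in 44 and 33 of 44 libraries.

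*Cd74*, the invariant chain, ranged from 8299 to 17565 CPM (median 10630) with tumour cells and from 10850 to 15733 CPM (median 12613) in sham libraries, a log2 difference of -0.24 ± 0.081 (SE; adjusted p = 0.0203). *Ciita* ranged from 19.4 to 58.1 CPM (median 33.5) against 30.3 to 75.6 CPM (median 44.7). Its log2 difference of -0.28 (95% interval -0.55 to -0.02) did not pass (adjusted p = 0.0886), and it passed without sham ZT3 replicate 1, sham ZT9 replicate 3 or control tumour ZT21 replicate 1 (adjusted p = 0.0486, 0.0271 and 0.0466). *H2-Eb1* passed without control tumour ZT3 replicate 3 (adjusted p = 0.0299).

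With median-of-ratios scaling, which brings the median gene near to no change, 5 of the 10 passed (37.7% of all genes): the calls of *Cd74* (adjusted p = 0.141) and *H2-DMb2* (adjusted p = 0.0715) were lost. Under every setting that tested them, their log2 differences were at most -0.189 (*Cd74*) and -0.247 (*H2-DMb2*). Without ZT15, a timepoint left out after the data were seen, 9 of 10 passed (31.3% of all genes). At ZT15 itself the means were higher with tumour cells for 5 of 10 members, *H2-Aa* (1.16-fold), *H2-Eb1* (1.19-fold), *Cd74* (1.07-fold), *H2-DMb2* (1.06-fold) and *H2-Ob* (1.07-fold), with groups that overlapped, so that the lower estimates above are averages over times that did not all share this direction. The difference did not pass as dependent on time for any member (treatment-by-time interaction in limma, 0 of 10 at adjusted p under 0.05, as for 0% of all genes), and 2 had an unadjusted p under 0.05, *H2-Ab1* (adjusted p = 0.350) and *H2-Ob* (adjusted p = 0.411), beside 11.9% of all genes.

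**Figure D1:**
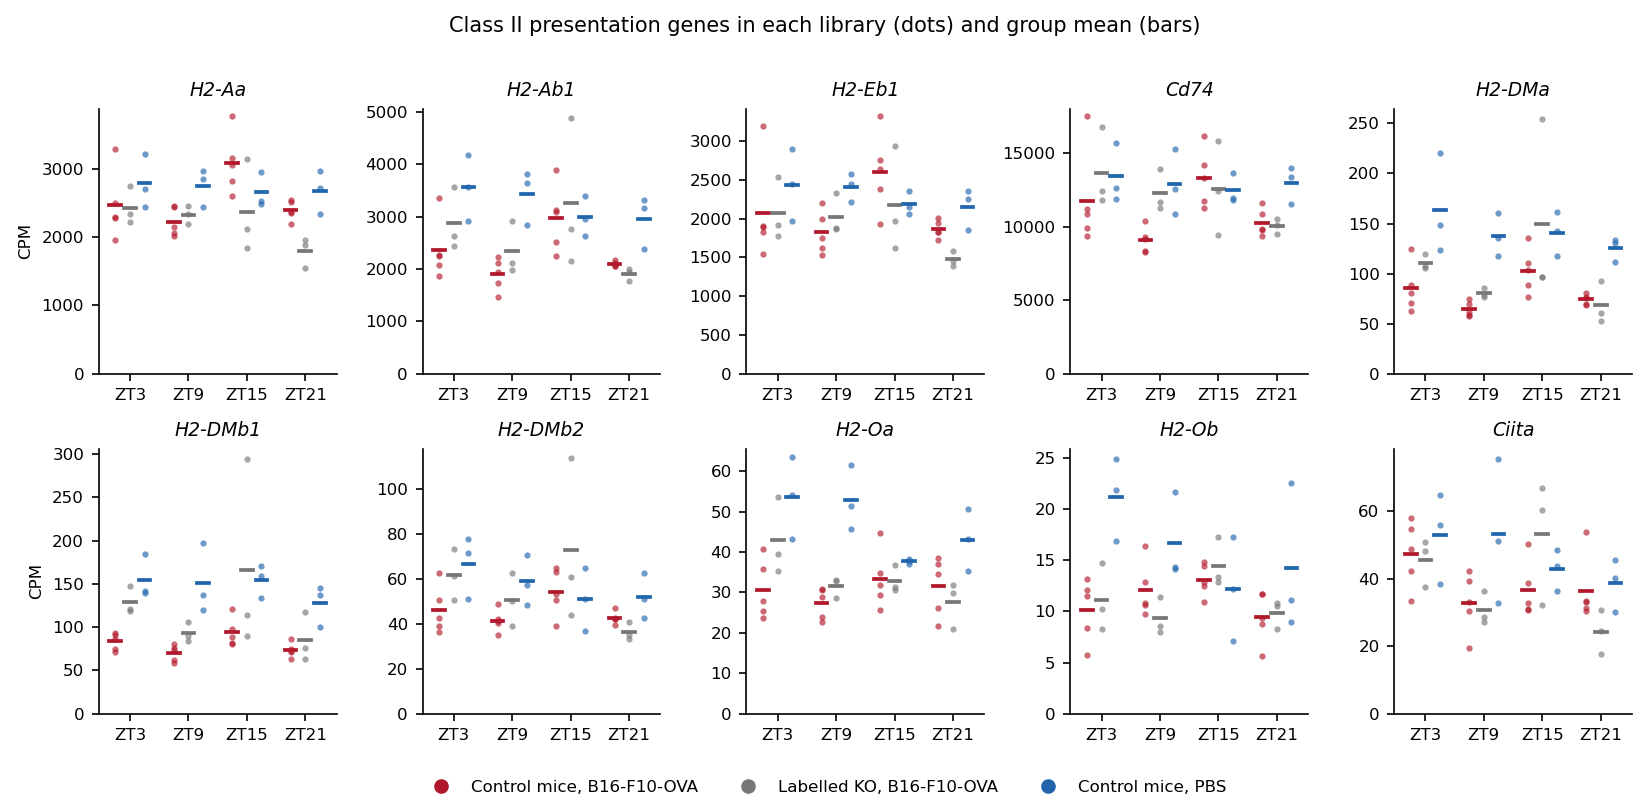
CPM of each of the 10 genes (y axis, linear, from 0) at ZT3, ZT9, ZT15 and ZT21 (x axis). Dots are libraries and bars group means (5 control tumour, 3 labelled KO and 3 sham libraries per timepoint); the 20 control tumour libraries of *H2-DMb1* lie between 58.5 and 121 CPM, below the sham libraries of the same timepoint.

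Markers of other cells differed between the same groups. All 6 of 6 macrophage and monocyte markers (*Adgre1*, *Fcgr1*, *C1qa*, *C1qb*, *Csf1r* and *Ly6c2*) were called lower with tumour cells. Their summed level was 55.2 to 211 CPM (median 108) in control tumour and 227 to 378 CPM (median 303) in sham libraries, and *Fcgr1* was the marker at 0 in some libraries. Markers of conventional DCs of type 2 (4 of 5 lower, 86.6 to 213 against 152 to 309 CPM), of type 1 (5 of 5 lower, 42.6 to 88.9 against 103 to 189 CPM), of plasmacytoid DCs (4 of 5 lower, 156 to 239 against 243 to 354 CPM) and of NK cells (5 of 5 lower, 4.10 to 18.2 against 36.9 to 331 CPM) moved the same way. Of T cell markers 8 of 9 were lower (282 to 664 against 543 to 1125 CPM), and of B cell markers 6 of 11 (51.2 to 91.5 against 87.5 to 149.6 CPM). *Pax5*, *Ebf1*, *Blk* and *Fcmr* of the B cell list were at 0 in some libraries. In contrast, 5 of 8 markers of mature migratory DCs were higher (30149 to 40876 against 22581 to 39374 CPM). Conventional DC markers were mixed (1 of 6 higher and 2 lower, 5212 to 9977 against 6335 to 8270.0 CPM), and 2 of 4 Langerhans cell markers were lower (81.3 to 143 against 102 to 152 CPM). The part of these cells in the lower class II levels was not tested.

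*H2-DMb1* varied with the macrophage markers also within groups. After group means were subtracted, its log2 level had a Pearson r of 0.834 with their summed log2 level over 44 libraries, which share their sort and their scaling (0.702 over the 42 libraries left without the 2 farthest ones). Within the arms r was 0.749 (control tumour), 0.898 (labelled KO) and 0.798 (sham). For *H2-DMa* r was 0.712, for *H2-Ab1* 0.594, for *H2-Aa* 0.503, for *Cd74* 0.386 and for *Ciita* 0.204. For *H2-DMb2* it was 0.444, and 0.278 without the 2 farthest libraries, with 0.0749 in control tumour, 0.588 in labelled KO and 0.646 in sham libraries. Without these libraries (labelled KO ZT15 replicates 1 and 2) r was 0.560 for *H2-DMa*, 0.503 for *H2-Ab1* and 0.368 for *H2-Aa*. The order of the members was not the same within each arm: in control tumour libraries *H2-DMa* (0.466) was below *H2-Ab1* (0.545).

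Other marker lists varied with the members too, treated in the same way over the 44 libraries. With the markers of plasmacytoid DCs, r was 0.655 for *H2-DMb1*, 0.611 for *H2-DMa* and 0.569 for *H2-Aa*, the last above its r with the macrophage markers. *Ciita* had an r of 0.618 with the markers of conventional DCs of type 2. Negative values were found for *H2-Oa* (-0.63) and *H2-DMb1* (-0.53) with the markers of mature migratory DCs and for *Cd74* (-0.54) with those of Langerhans cells.

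**Figure D2:**
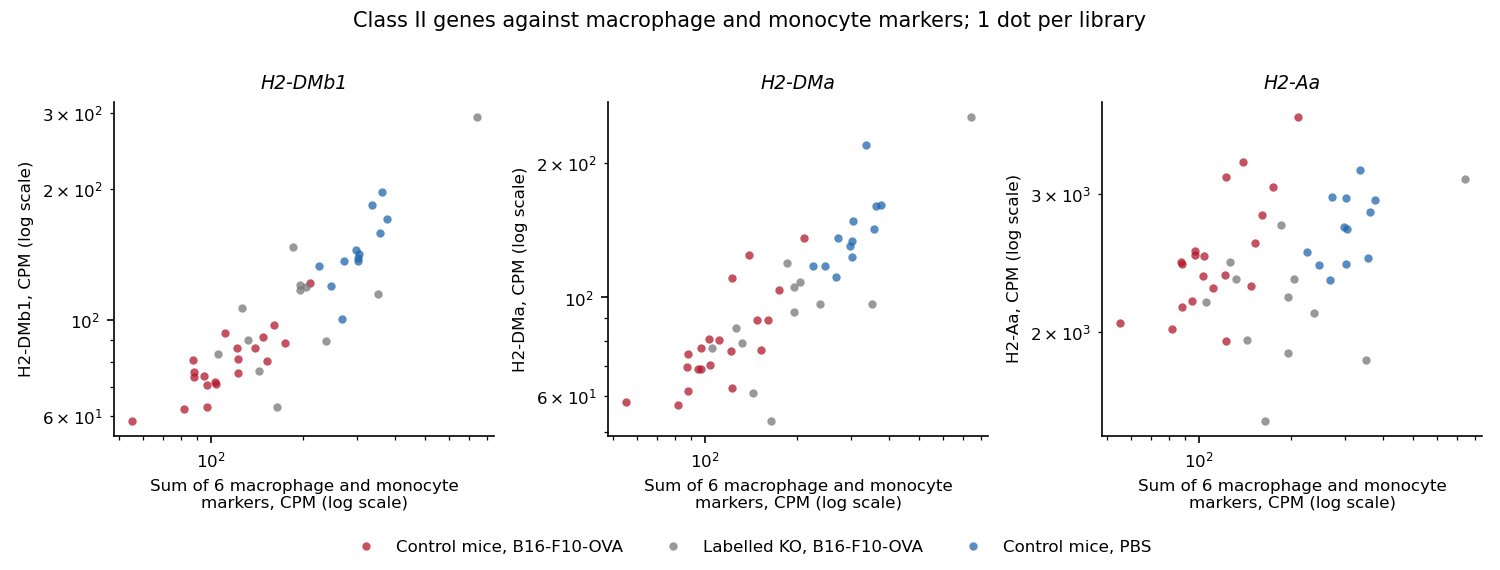
CPM of *H2-DMb1*, *H2-DMa* and *H2-Aa* (y axes, log scale) against the summed CPM of 6 macrophage and monocyte markers (x axis, log scale), 1 dot per library. Sham libraries lie to the right at 227 to 378 CPM of markers, and control tumour libraries to the left at 55.2 to 211 CPM, and the labelled KO library at 740.3 CPM of markers has 294 CPM of *H2-DMb1*.

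To ask whether *Bmal1* in conventional DCs bore on class II genes, labelled KO and control tumour libraries were compared. This comparison shares the 20 control tumour libraries with that of tumour and sham. Averaged over time, 7 of the 10 members had higher estimates (63.2% of all genes), and *H2-DMb1* alone passed (limma, 1 of 10 at adjusted p under 0.05), beside 33.7% of all genes tested, 23.5% of them higher and 10.2% lower. The share of the members is below that background. The median log2 difference of the members was 0.13, compared with 0.10 over all genes.

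*H2-DMb1* ranged from 63.1 to 294 CPM in labelled KO libraries (median 111) and from 58.5 to 121 CPM in control tumour libraries (median 78.2). At ZT3 the labelled KO libraries held 147, 119 and 121 CPM and the control libraries 75.3, 91.2, 86.4, 93.5 and 71.4 CPM. The groups did not overlap at ZT3 (8.83% of all genes higher without overlap) and ZT9 (9.21%) and overlapped at ZT15 and ZT21. The log2 difference was 0.46 ± 0.12 (SE; adjusted p = 0.00457), and 0.41 without ZT15 (adjusted p = 0.00472). Summed with *H2-DMb2* it was 0.38 (adjusted p = 0.00847).

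The other H2-M genes were not called. *H2-DMa* gave a log2 difference of 0.25 (95% interval -0.00 to 0.50, adjusted p = 0.120) and *H2-DMb2* one of 0.20 (95% interval -0.03 to 0.43, adjusted p = 0.168). A single labelled KO library, ZT15 replicate 2, held the highest level of 4 members among all 44 libraries, with 254 CPM of *H2-DMa*, 294 CPM of *H2-DMb1*, 114 CPM of *H2-DMb2* and 4886 CPM of *H2-Ab1*, and of the macrophage markers (740.3 CPM). In the other labelled KO libraries at ZT15 *H2-DMa* was at 96.7 and 96.6 CPM. Without ZT15 replicate 2 the log2 difference between labelled KO and control tumour was 0.13 for *H2-DMa* (adjusted p = 0.315), 0.11 for *H2-DMb2* (adjusted p = 0.414) and 0.34 for *H2-DMb1* (adjusted p = 0.00519). At ZT9 all 3 labelled KO libraries were above all 5 control tumour libraries for *H2-DMa*, and also for *Cd74*, as for *H2-DMb1* (9.21% of all genes).

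*H2-Aa* lay in the opposite direction, with 1540 to 3133 CPM (median 2199) in labelled KO and 1950 to 3763 CPM (median 2450) in control tumour libraries. Its log2 difference was -0.19 (95% interval -0.35 to -0.03), just short of the threshold (adjusted p = 0.0602). It passed with median-of-ratios scaling, with an intensity trend, with array weights and among genes with a mean of at least 10 CPM, and not under the other settings that used all libraries. Without ZT15 the difference was -0.12 (adjusted p = 0.301), and without labelled KO ZT15 replicate 2 alone it was -0.25 (adjusted p = 0.0103). At ZT21 all 3 labelled KO libraries (1540, 1954 and 1880 CPM) were below all 5 control libraries (2190, 2354, 2365, 2535 and 2508 CPM), as they were for *H2-Ab1* and *H2-Eb1*, beside 5.85% of all genes tested.

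The remaining members gave log2 differences of 0.13 (*Cd74*, adjusted p = 0.251), 0.13 (*H2-Ab1*, adjusted p = 0.368), 0.13 (*H2-Oa*, adjusted p = 0.360), 0.00 (*H2-Ob*, adjusted p = 0.983), -0.05 (*Ciita*, adjusted p = 0.803) and -0.11 (*H2-Eb1*, adjusted p = 0.423). Without labelled KO ZT15 replicate 2 the values were 0.05 for *H2-Ab1* (adjusted p = 0.737), 0.09 for *Cd74* (adjusted p = 0.463) and -0.17 for *H2-Eb1* (adjusted p = 0.184). For *H2-Ob* the 95% interval was -0.24 to 0.25 and for *Ciita* -0.31 to 0.22. The genotype-by-time interaction was called for 0 of 10 members in limma (0.0502% of all genes), with 0 at an unadjusted p under 0.05 (18.3% of all genes). The lowest adjusted p was that of *Ciita* (0.282).

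Markers of macrophages and monocytes were called higher in labelled KO libraries for 6 of 6 genes (105 to 740.3 CPM, median 191, against 55.2 to 211 CPM), of Langerhans cells for 4 of 4 (117 to 212 against 81.3 to 143 CPM), and of conventional DCs of type 2 for 4 of 5 (90.5 to 542 against 86.6 to 213 CPM). NK cell markers were higher for 4 of 5 (11.4 to 66.3 against 4.10 to 18.2 CPM). Fewer were called in the other lists: 3 of 9 of T cells, 2 of 11 of B cells and 2 of 5 of plasmacytoid DCs, all higher, 3 of 5 of conventional DCs of type 1 (2 higher and 1 lower), and 1 of 6 of conventional and 1 of 8 of mature migratory DCs, both lower. Their part in the level of *H2-DMb1* was not tested.

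**Figure D3:**
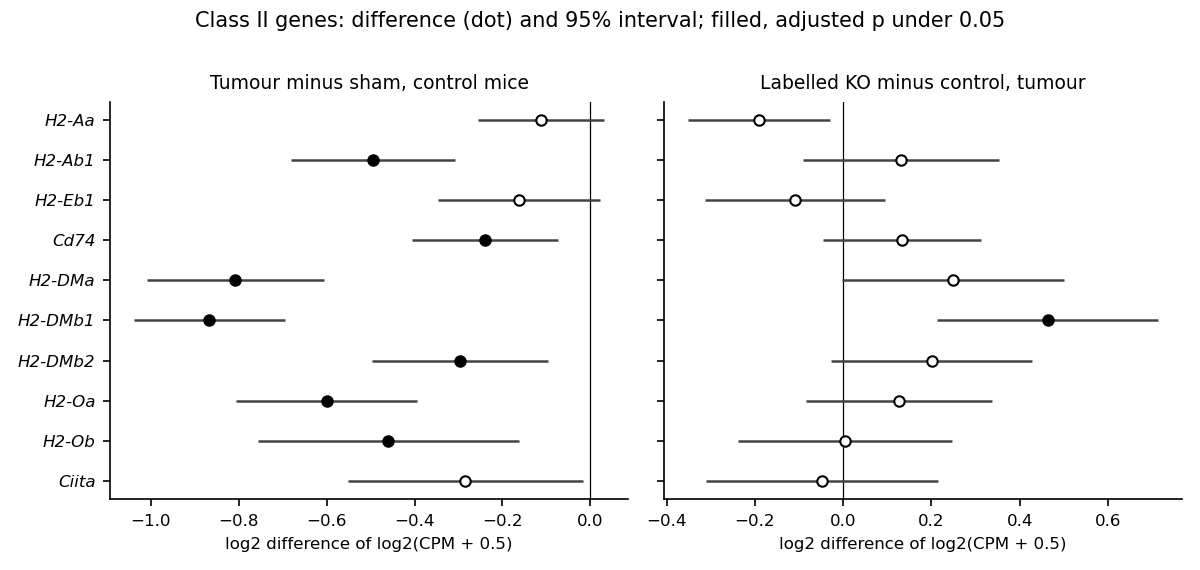
Log2 difference of the 10 genes (x axis, dots) with its 95% interval (lines) between tumour and sham libraries of control mice and between labelled KO and control tumour libraries; filled dots passed at an adjusted p under 0.05. All 10 dots lie left of 0 in the first panel, with 7 filled, and *H2-DMb1* (0.46) is the filled dot of the second.

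Whether class II genes followed the time of day was tested in each arm on its own. In control tumour libraries no member passed the F test among the 4 timepoints (limma, 0 of 10 at adjusted p under 0.05, 5.28% of all genes). At an unadjusted p under 0.05 there were 6 of 10 (23.1% of all genes): *H2-Ab1* (adjusted p = 0.0741), *H2-DMa* (0.0781), *Cd74* (0.0964), *H2-Aa* (0.0967), *H2-DMb1* (0.139) and *H2-Eb1* (0.169). The highest group mean was at ZT15 for 9 of 10 members (*Ciita* at ZT3) and the lowest at ZT9 for 9 of 10 (*H2-Ob* at ZT21).

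The sum of the members was 15301 ± 1646 CPM at ZT9 and 22337 ± 3593 CPM at ZT15 (SD, n = 5), with 18981 ± 5055 at ZT3 and 16914 ± 1152 at ZT21. For *H2-Ab1* the libraries held 2238, 1950, 1724, 2106 and 1461 CPM at ZT9 and 3081, 2516, 2243, 3128 and 3881 CPM at ZT15. The lowest library at ZT15 was thus above the highest at ZT9, by a small margin. *H2-Aa*, *Cd74* and *H2-DMa* also did not overlap between these times, so that 4 of 10 members were higher at ZT15 without overlap, beside 2.99% of all genes tested. These times were chosen as those of the members' own lowest and highest means, so that the count is a description. Between their own highest and lowest times, 16.5% of all genes did not overlap in this arm.

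*H2-DMa* was at 69.7, 61.8, 57.3, 74.6 and 58.3 CPM at ZT9 and at 104, 88.8, 76.2, 111 and 136 CPM at ZT15, a ratio of the means of 1.60. At ZT3 replicate 3 stood apart from the other control tumour libraries of its timepoint, with 125 CPM of *H2-DMa*, where the others held 62.6 to 88.8 CPM, and with the highest sum of the members of all 44 libraries (27778 CPM). Without this library 5 of 10 members passed the F test, beside 11% of all genes, where 5.28% had passed with it: *Cd74* (adjusted p = 0.0164), *H2-Aa* (0.0211), *H2-Ab1* (0.0231), *H2-DMa* (0.0244) and *H2-Eb1* (0.0326). With array weights, which give such libraries less weight, 5 members passed as well, beside 20.6% of all genes.

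Macrophage and monocyte markers changed over the day in the same libraries: 5 of 6 passed the F test (limma), and their summed level was 80.2 ± 14.2 CPM at ZT9 and 164 ± 32.3 CPM at ZT15 (SD, n = 5), with 125 ± 18.5 at ZT3 and 103 ± 11.1 at ZT21. These are the times of the lowest and highest means of 8 of the 10 members as well, and 3 of 5 markers of conventional DCs of type 2, 2 of 9 of T cells and 1 of 5 of NK cells also passed, with 0 in the other lists of cell types. Summed markers of conventional DCs of type 2 were likewise lowest at ZT9 (109 ± 14.4 CPM) and highest at ZT15 (171 ± 31.5). So were those of NK cells (6.41 ± 2.22 and 13.9 ± 4.72 CPM). The summed level of the T cell markers was also lowest at ZT9 (344 ± 60.7 CPM, SD, n = 5), but was alike at ZT15 (534 ± 27.0) and ZT21 (539 ± 87.1). The part of these cells in the daily pattern of the class II genes was not tested.

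No member passed in the other arms either. In labelled KO libraries 0 of 10 members passed the F test in limma (0% of all genes), and 1, *Ciita* (adjusted p = 0.381), had an unadjusted p under 0.05 (10.3% of all genes). *Ciita* was at 60.5, 66.8 and 32.2 CPM at ZT15 and at 30.7, 17.7 and 24.4 CPM at ZT21 there. The highest mean of a timepoint was between 1.36-fold (*H2-Aa* and *Cd74*) and 2.19-fold (*Ciita*) the lowest in this arm, with 2.17-fold for *H2-DMa* and 2.00-fold for *H2-DMb2*, and the lowest was at ZT21 for 9 of 10 members (*H2-Ob* at ZT9). The libraries of these times did not overlap for 9 of 10 members (all but *H2-DMb1*), beside 38.3% of all genes between their own highest and lowest times. Without ZT15 replicate 2, a library left out after the data were seen, the ratios were 1.61-fold for *H2-DMa*, 1.70-fold for *H2-DMb2* and 1.91-fold for *Ciita*, and the highest mean was at ZT3 for 8 of 10 members (*H2-Ob* and *Ciita* at ZT15). The summed macrophage and monocyte markers of this arm were highest at ZT15 (444 ± 263 CPM, SD, n = 3) and lowest at ZT9 (121 ± 14.2). Their ZT15 mean rested much on replicate 2 (740.3 CPM, with 238 and 352 CPM in replicates 1 and 3). Markers of conventional DCs of type 2 shared these times (332 ± 187 and 115 ± 29.4 CPM). B cell markers were highest at ZT15 (163 ± 48.7 CPM) and, like most members, lowest at ZT21 (81.0 ± 14.8). The part of these cells was not tested. In sham libraries 0 of 10 passed in limma (0% of all genes), and 0 had an unadjusted p under 0.05 (7.44%). There the same ratio was between 1.05-fold (*H2-Aa*) and 1.74-fold (*H2-Ob*), with 1.08-fold for *Cd74* and 1.42-fold for *H2-Oa*, the 1 of 10 members whose libraries at these times did not overlap (32.7% of all genes).

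A cosinor with a period of 24 h, which tests a single daily peak, called 0 of 10 members in each arm in limma (0.0251% of all genes in control tumour, 0% in labelled KO and sham). The single unadjusted p under 0.05 was that of *H2-Oa* in sham libraries (adjusted p = 0.667, 7.38% of all genes), and there were 0 in control tumour (9.2%) and labelled KO libraries (10.5%). The median amplitude of the members was 0.18 on the log2 scale in control tumour, 0.20 in labelled KO and 0.14 in sham libraries, compared with 0.14, 0.22 and 0.18 over all genes.

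Between ZT9 and ZT21, the injection times that the study set against each other, 0 of 10 members passed in any arm in limma (0.226%, 0.00836% and 0% of all genes in control tumour, labelled KO and sham), and 0 had an unadjusted p under 0.05 in any of them (11.5%, 10.9% and 5.32% of all genes). Estimates at ZT9 were lower than at ZT21 for 9 of 10 members in control tumour libraries (43.8% of all genes) and higher for 9 of 10 in labelled KO (36.9%) and in sham libraries (54.5%). The members' median log2 difference was -0.13, 0.28 and 0.20, compared with 0.04, -0.12 and 0.03 over all genes. *Cd74* gave a log2 difference of -0.18 (95% interval -0.48 to 0.13) in control tumour, 0.29 (-0.18 to 0.76) in labelled KO and -0.02 (-0.40 to 0.36) in sham libraries. *H2-Ab1* gave -0.16 (-0.50 to 0.17), 0.28 (-0.37 to 0.92) and 0.22 (-0.22 to 0.66). Each of these intervals holds 0. With 1 library left out, the difference of *H2-Ab1* ranged from -0.23 to -0.07 in control tumour, 0.11 to 0.38 in labelled KO and 0.07 to 0.35 in sham libraries. That of *Cd74* in sham libraries changed sign (-0.15 to 0.10).

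Among themselves the members fell into tight and loose parts. After the means of the 12 groups were subtracted, log2 levels over the 44 libraries had a Pearson r between -0.15 and 0.94 over the 45 pairs of members (median 0.51). The classical chains and the invariant chain were closest: *H2-Aa* and *H2-Eb1* (0.943), *Cd74* and *H2-Eb1* (0.939) and *H2-Ab1* and *H2-Eb1* (0.935). Of all genes tested, the 2 most alike to each of these 4 genes were others of the 4. These are correlations over libraries that share a scaling to the same total, and they are given as a description.

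*H2-DMa* was nearest to *H2-Aa* (0.865) and *H2-Ab1* (0.844), and *H2-DMb2* to *H2-Ab1* (0.875) and *H2-Eb1* (0.801). *H2-DMb1* was instead nearest to *Alox5ap* (0.850), which encodes the activating protein of 5-lipoxygenase, and to *H2-DMa* (0.842). The nearest genes of the H2-O genes were no members: *H2-Oa* was nearest to *Tmem11* (0.772) and *Smn1* (0.744) and *H2-Ob* to *Psmd5* (0.643) and *Zmym1* (0.641), and the pair had an r of 0.183 with each other. With the other members r reached 0.512 for *H2-Oa* (with *H2-Aa*), near the median of all pairs, and 0.243 for *H2-Ob* (with *H2-DMb1*). *Ciita* was nearest to *Degs1* (0.616) and *H2-Ab1* (0.616). *H2-Ob*, which carries the pair of X and Y box letters in its promoter like *H2-Aa*, had an r of 0.0731 with it. This value was not stable: without the 2 farthest libraries it was 0.209. Within the arms it was -0.177 (control tumour), 0.290 (labelled KO) and 0.307 (sham).

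Leaving out the 2 libraries farthest from the median changed the closest pairs little (0.921 for *H2-Aa* with *H2-Eb1* over 42 libraries), and within the arms this r was 0.965 (control tumour), 0.928 (labelled KO) and 0.939 (sham). For *H2-DMb1* with *H2-DMb2* it fell from 0.566 to 0.391.

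**Figure D4:**
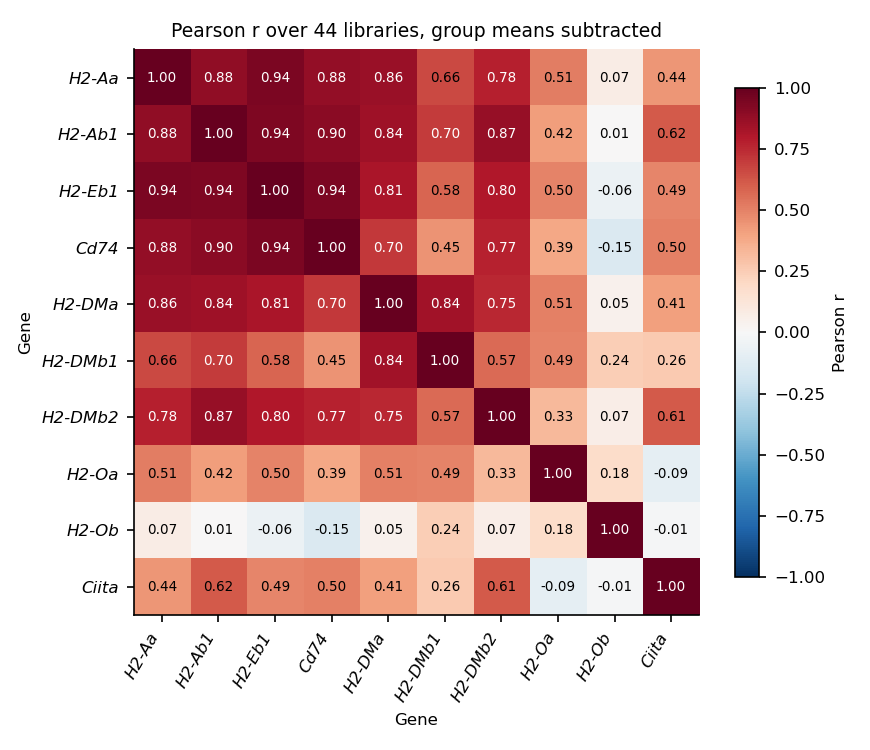
Pearson r between the log2 levels of the 10 genes over 44 libraries, after the mean of each group was subtracted; both axes list the genes and the colour gives r from -1 to 1. The block of *H2-Aa*, *H2-Ab1*, *H2-Eb1* and *Cd74* is darkest, with r of up to 0.943, and the row of *H2-Ob* is palest, with r between -0.15 and 0.24.

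Of a list of 25 other genes of the class II pathway, 22 were in the table and all 22 were tested (*Marchf1*, *Marchf8* and *H2-Ea* were not found under these symbols). Between control tumour and sham libraries 14 of 22 passed, 6 higher and 8 lower. Between labelled KO and control tumour libraries, with the same control tumour libraries, 13 of 22 passed, 6 higher and 7 lower. The background is given above for both comparisons (37.9% and 33.7%).

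Among the endosomal proteases, *Ctsl* (cathepsin L) and *Ctsd* (cathepsin D) fell most with tumour cells. *Ctsl* ranged from 5.30 to 19.5 CPM in control tumour and from 24.1 to 41.8 CPM in sham libraries, which did not overlap, with a log2 difference of -1.54 (adjusted p = 7.56e-10). *Ctsd* gave -0.87 (adjusted p = 2.22e-10) and *Ctsb* -0.30 (adjusted p = 1.34e-05). *Ctss* (cathepsin S), the main protease of the invariant chain in DCs, changed by -0.19 (adjusted p = 0.00246), with 1534 to 1985 CPM against 1718 to 2114 CPM. In labelled KO libraries the same proteases were higher than in control tumour libraries, *Ctsl* by 0.96 (adjusted p = 0.000187), *Ctsd* by 0.71 (adjusted p = 7.68e-06), *Ctsb* by 0.41 (adjusted p = 2.41e-05) and *Ctss* by 0.17 (adjusted p = 0.0106). The macrophage and monocyte markers given above had the same directions, 6 of 6 lower with tumour cells (median log2 difference -1.30) and 6 of 6 higher in labelled KO libraries (0.79), and their part in the protease levels was not tested.

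*Ifi30*, the thiol reductase GILT, was higher with tumour cells (log2 difference 0.27, adjusted p = 0.00152) and lower in labelled KO libraries (-0.48, adjusted p = 7.30e-06). *Sppl2a*, the protease that removes the last stub of the invariant chain, gave 0.29 (adjusted p = 0.000380) and -0.48 (adjusted p = 2.39e-07). It ranged from 219 to 321 CPM in control tumour, from 170 to 260 CPM in sham and from 154 to 211 CPM in labelled KO libraries, the last without overlap with control tumour. *Cst3* (cystatin C, a cathepsin inhibitor) was not called with tumour cells (-0.09, adjusted p = 0.448) and was lower in labelled KO libraries (-0.26, adjusted p = 0.0290).

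*H2-Eb2*, a β-chain gene next to *H2-Eb1*, was higher with tumour cells, where all 10 members had lower estimates. It ranged from 77.9 to 129 CPM in control tumour libraries (mean 93.5 ± 11.4, SD, n = 20), reached at most 71.6 CPM in sham libraries (54.5 ± 9.44, SD, n = 12) and ranged from 53.3 to 86.5 CPM in labelled KO libraries. Control tumour and sham libraries did not overlap. For this gene, and for *Ctsl* and *Sppl2a* above, the share of all genes tested without overlap between whole arms was not counted. The log2 difference of *H2-Eb2* was 0.78 (limma, adjusted p = 6.36e-09) with tumour cells and -0.39 (adjusted p = 4.71e-05) in labelled KO libraries. Its promoter also holds the pair of X and Y box letters, with its first base at -132.

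Regulators of the promoters moved in both directions. Of the RFX subunits, *Rfxap* was lower with tumour cells (-0.43, adjusted p = 0.000339) and higher in labelled KO libraries (0.28, adjusted p = 0.0164). *Rfx5* passed in neither comparison (0.14, adjusted p = 0.217, and 0.03, adjusted p = 0.842), and *Rfxank* was lower in labelled KO libraries alone (-0.22, adjusted p = 0.0219; 0.03, adjusted p = 0.742 with tumour cells). Of NF-Y, *Nfya* rose with tumour cells (0.31, adjusted p = 0.00321) while *Nfyb* (-0.19, adjusted p = 0.0126) and *Nfyc* (-0.25, adjusted p = 0.00315) fell. *Nfya* was lower in labelled KO libraries (-0.22, adjusted p = 0.0277) and *Nfyc* higher (0.26, adjusted p = 0.00199).

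*Creb1* was higher with tumour cells (0.25, adjusted p = 0.00858). *Spib*, an ETS factor of B cells and DCs, was higher with tumour cells (0.40, adjusted p = 0.000919) and lower in labelled KO libraries (-0.33, adjusted p = 0.0165). *Irf8*, a factor of type 1 DCs, was lower with tumour cells (-0.47, adjusted p = 1.29e-05) and not called in labelled KO libraries (-0.01, adjusted p = 0.965). No gene of the list passed the F test for time of day in any arm (limma, 0 of 22), with 7 in control tumour, 2 in labelled KO and 0 in sham libraries at an unadjusted p under 0.05, beside 23.1%, 10.3% and 7.44% of all genes.

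**Figure D5:**
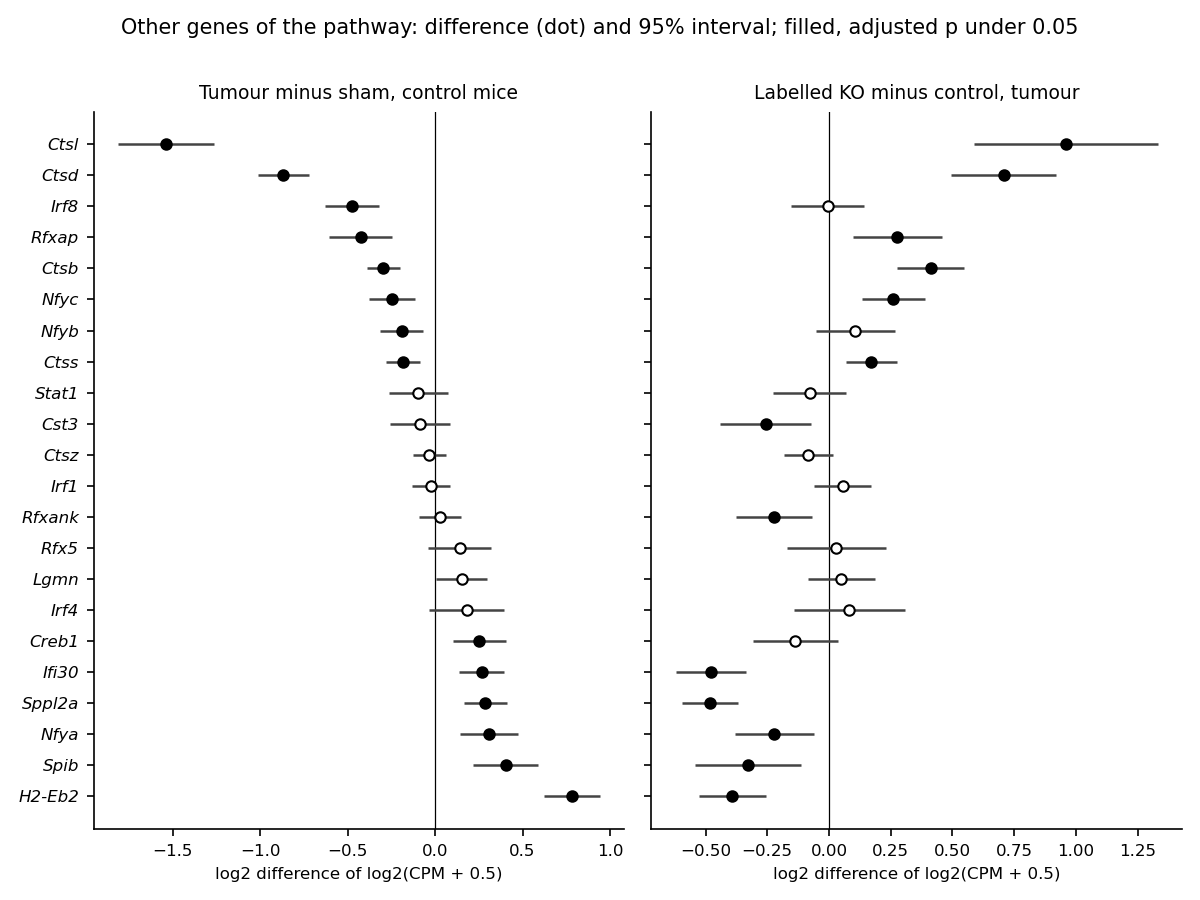
Log2 difference of 22 other genes of the class II pathway (x axis, dots) with its 95% interval (lines) between tumour and sham libraries of control mice and between labelled KO and control tumour libraries; filled dots passed at an adjusted p under 0.05. *Ctsl* lies farthest left (-1.54) and *H2-Eb2* farthest right (0.78) in the first panel, and the same control tumour libraries enter both panels.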

How the data were processed

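RNA of the sorted cells was turned into cDNA with the SMART-Seq v4 kit and libraries with Nextera XT, and single reads of 50 bases were produced. The authors aligned them with STAR to mm10, counted them on genes with HTSeq (0.9.1, per the submitters' processing notes), scaled the counts with edgeR by library size, and deposited linear CPM in 1 table. Every column adds up to 1000000. From 85.9% to 87.7% of the positive values of a library were whole multiples of 1 read (tolerance 0.001), too few for a test on counts, and 1 read was worth at most 0.0498 CPM, from which the reads on genes were obtained. *H2-Eb1*, *H2-DMb1* and *H2-DMb2* held fractions of a read in 100% of libraries, *H2-Oa* in 95.5%, *Cd74* in 90.9% and *H2-Ab1* in 75%, and no counting intervals are given.

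Groups were taken from the sample titles, and no 2 libraries were identical. The 11963 genes that reached 1 CPM or more in 5 or more libraries (2736 others did not) were fitted on log2(CPM + 0.5) with limma (3.58.1; R 4.3.3) and its moderated variances, and p-values were adjusted after Benjamini–Hochberg over all genes tested. A log2 difference on this scale understates changes of low genes. Time of day (F test and cosinor of 24 h) and ZT9 against ZT21 were fitted in each arm, and averaged differences and interactions on the 32 libraries of 2 arms, without a replicate term. The fit was tested on simulated data.

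The members and gene lists were chosen with earlier results of these data known. Named are the 10 members, the pathway genes that passed a test together with *Ctss*, *Ifi30*, *Sppl2a*, *Marchf1*, *Cst3* and the RFX subunits, the 2 genes most alike to each member, and *Arntl*. Genes of marker lists are named to say what a list holds, and 1 macrophage marker is not reported here and enters no sum. Gene coordinates and promoters are from RefSeq, and exon lengths and overlaps of gene models from GENCODE vM21 (both GRCm38.p6). Correlations and figures were made with numpy 2.4.6, pandas 2.3.3 and matplotlib 3.10.9 (Python 3.11.15). Alternatives were other pseudocounts, scalings, filters and limma settings, *H2-DMb1* and *H2-DMb2* as 1 value, a replicate block and each library left out.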

Additional observations from a re-analysis of the deposited data

Results flagged for a closer look

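Among the 40 combinations of a member and a group of 5 control tumour libraries, 4 held a library far from the other 4 by Dixon's ratio at the 95% level, which chance gives in about 1 of 20 groups. At ZT3, 3 of them were the same library, replicate 3. It held 17565 CPM of *Cd74* (the next library 11227 CPM), 3354 CPM of *H2-Ab1* (next 2269 CPM) and 3193 CPM of *H2-Eb1* (next 1910 CPM). At ZT21, replicate 1 held 53.8 CPM of *Ciita*, where the others held 30.5 to 33.6 CPM. Groups of 3 libraries were not examined in this way.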

How the results depend on the processing

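In control mice, the number of members called between tumour and sham libraries was 7 and stayed within 5 to 9 under all settings, where 30.8% to 42.3% of all genes were called (7 to 8 with 1 library left out, 8 with array weights, 6 with *H2-DMb1* and *H2-DMb2* as 1 value), and all 118 values of single members under the other settings and all 320 with 1 library left out were negative. Between labelled KO and control tumour libraries 1 member was called, and 2 with median-of-ratios scaling (29.3% of all genes), with an intensity trend (34.5%), with array weights (39.1%) and among genes with a mean of at least 10 CPM (41.4%), in each case *H2-DMb1* and *H2-Aa*, as well as (26.3%) without the 3 libraries that stand apart (control tumour ZT3 replicate 3 and labelled KO ZT15 replicates 1 and 2, chosen after seeing the data). Leaving out 1 library gave 1 to 2, with *H2-Aa* added without control tumour ZT3 replicate 1 or ZT15 replicate 3 or labelled KO ZT3 replicate 1 or ZT15 replicate 2, and *H2-DMb2* without labelled KO ZT15 replicate 3; *H2-DMb1* stayed called, with log2 differences of 0.34 to 0.55. For time of day in control tumour libraries, 0 members were called, but 2 among genes with a mean of at least 10 CPM (11.2% of all genes), 3 with an intensity trend (7.82%), 5 with array weights (20.6%), 5 without the libraries that stand apart (11%) and 0 to 5 with 1 library left out, the 5 being reached without ZT3 replicate 3 (11%). The cause was not tested. No other count of called members moved by over 1.5 times, and no called difference changed sign. The array weights had not converged in some fits. The replicate numbers did not pair the libraries: deviations of same-numbered libraries of 1 arm had a median r of -0.0106 in control tumour, 0.0113 in labelled KO and -0.0150 in sham libraries, and with the replicate block 7 members were called for tumour against sham, 1 for labelled KO against control tumour and 0 elsewhere. Median-of-ratios scaling moved the median of all genes by over 0.1 only for ZT9 against ZT21 in labelled KO libraries, from -0.12 to -0.00088. A count test was not run, since whole reads could not be recovered. All control tumour libraries but 1 held fewer reads than every library of the other arms, so that depth and arm cannot be told apart.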
